A study of Mus musculus with 4 samples.

Results

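The cells described here are T cells of the brain borders that carried RNA of Pdcd1 or Cxcr5 and no CD8 chain. They were chosen from 4 single-cell RNA libraries as cells with 200 to 7000 detected genes, at most 5% mitochondrial UMIs, at least 1 UMI of the CD3 genes Cd3d, Cd3e or Cd3g, no UMI of Cd8a, Cd8b1, Foxp3, Tnfsf8, Gzmk or Eomes, and at least 1 UMI of Cxcr5 or Pdcd1. A UMI (unique molecular identifier) counts 1 captured RNA molecule. Of 4801 deposited cell barcodes, 172 met the rule. They are called Pdcd1/Cxcr5+ cells below. Cells that met every other condition but had no UMI of either gene numbered 1735 and are called counterparts.

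The study asked how aging alters T cells at the borders of the brain, with a main interest in T cells expressing CD153, the product of Tnfsf8. Both CD4 and CD8 T cells were isolated by flow sorting from the meninges, the membranes around the brain, and from the choroid plexus, the tissue that makes cerebrospinal fluid. The donors were female C57BL/6 mice aged 10 weeks (young) or 18 months (aged) with no named treatment or transgene, and RNA was read with the 10x Genomics 5′ kit on pools from 5 mice per group. Each of the 4 groups was a single library, ordered below as meninges and then choroid plexus of young mice and the same 2 tissues of aged mice, so no difference between ages or tissues has a replicate check and none is given a p-value. The 4 libraries held 3737140, 2295950, 4262917 and 3957717 UMIs, and sets of 4 values keep that order unless stated.

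PD-1, encoded by Pdcd1, is an inhibitory receptor that T cells put on their surface after antigen contact and keep under chronic stimulation. CXCR5 is the chemokine receptor that draws T cells into B cell follicles. Follicular helper T cells carry both, depend on the transcription factor BCL6, signal through the adaptor SAP (Sh2d1a) and the receptor Ly108 (Slamf6), carry the folate-receptor-like protein FR4 (Izumo1r) and feed B cells with the cytokine IL-21. Exhausted T cells combine PD-1 with other inhibitory receptors such as LAG3, TIM-3 (Havcr2) and TIGIT and with the regulator TOX. Regulatory T cells, memory cells at tissue sites and age-associated CD4 T cells can also carry PD-1, so the receptor by itself does not name a cell type.

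The young meninges gave 33 Pdcd1/Cxcr5+ cells, the young choroid plexus 7, the aged meninges 84 and the aged choroid plexus 48. They were 4.43% of the non-CD8 T cells of the young meninges (exact 95% Clopper-Pearson interval 3.07 to 6.16), 1.59% in the young choroid plexus (0.640 to 3.24), 7.66% in the aged meninges (6.15 to 9.39) and 8.15% in the aged choroid plexus (6.07 to 10.7). The shares of the aged libraries were above those of the young libraries in both tissues, with touching intervals in the meninges and separate ones in the choroid plexus. Because the rule counts single UMIs, the shares were taken again after every cell was thinned to 1000 UMIs, and were then 2.98%, 0.868%, 6.75% and 6.88%. The order of young and aged was kept. As percent of non-CD8 T cells, the difference between aged and young meninges was 3.23 points (95% interval 0.932 to 5.43). Its interval combines the exact limits of both shares as Newcombe does. The difference was 0.851 (-0.599 to 2.20) where 2 gate UMIs were required and 3.07 (-1.41 to 7.30) where a Cd4 UMI was required. For cells with a Cxcr5 UMI, with or without Pdcd1, the difference was 0.552 (-0.276 to 1.32). The last 3 intervals include 0, as does that of cells with a Cxcr5 UMI in the choroid plexus (0.792, -0.423 to 2.0). The intervals cover counting error only and say nothing of the spread between mice.

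**Figure D1:**
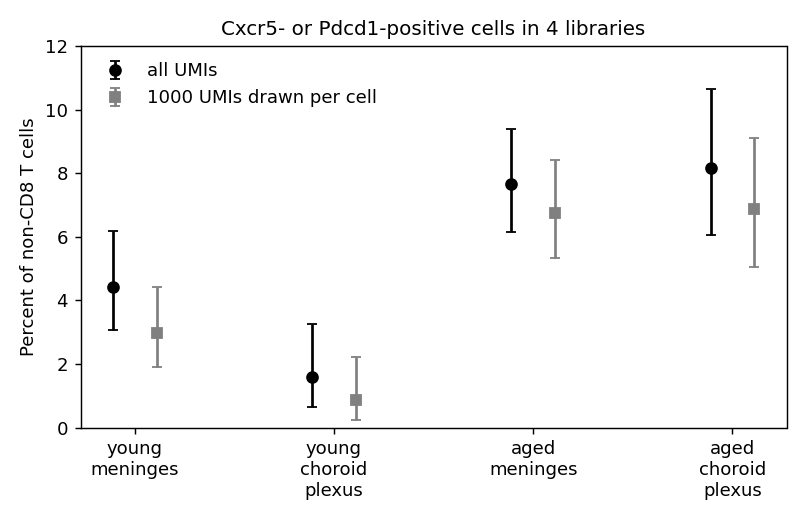
Pdcd1/Cxcr5+ cells as a percent of non-CD8 T cells (y axis) in each of the 4 libraries (x axis), with all UMIs (black circles) and after thinning each cell to 1000 UMIs (grey squares). Bars are exact 95% intervals, and both aged libraries stand above the young library of their tissue, at 7.66% against 4.43% (meninges) and 8.15% against 1.59% (choroid plexus).

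The denominator itself moved with age, because cells with Foxp3, Tnfsf8, Gzmk or Eomes UMIs were more numerous in the aged libraries and are left out by the rule. Among the cells that met every other condition, the Pdcd1/Cxcr5+ cells were 5.18%, 1.85%, 14.9% and 14.5%, a difference of 9.77 percentage points between aged and young meninges and of 12.7 in the choroid plexus. Of 4 T cell classes that the rule leaves out, 3 also had Pdcd1 UMIs more often in the aged libraries. Among Tnfsf8-positive non-CD8 cells 9.43%, 4.35%, 26.3% and 27.4% had a Pdcd1 UMI. Among Foxp3-positive cells the shares were 12.5%, 0% (of 11 cells), 29.4% and 35.4%. Among CD8 T cells the shares were 6.54%, 10.8%, 23.8% and 24.2%. Among Gzmk- or Eomes-positive non-CD8 cells they were 21.7%, 28.6% (2 of 7 cells), 23.1% and 23.2%, with no such gap between ages. Median depths were 3086, 2841, 2152 and 2520 UMIs in non-CD8 T cells and 3664.5, 3460, 2811 and 3124.5 in CD8 T cells.

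Pdcd1 (PD-1; GRCm38 1:94038305-94052553, minus strand) admitted nearly all of these cells and Cxcr5 (9:44511787-44561877, minus strand) few. Of the 172 cells, 154 had Pdcd1 and no Cxcr5 UMI, 14 had Cxcr5 and no Pdcd1 UMI, and 4 had both. The 4 double-positive cells came from the aged libraries, 3 meningeal and 1 from the choroid plexus. Pdcd1 gave 267 UMIs in the 172 cells and Cxcr5 gave 19. The gate rested on a single UMI in 113 cells, on 2 UMIs in 35 and on 3 or more in 24, up to 11 in a cell of the young meninges. Just outside the rule, 101 of the 680 T cells with a gate UMI were left out by 1 UMI of an excluding gene, and 407 by more than 1. Detection of Cxcr5 was as low in CD8 T cells, at 1.54%, 0.599%, 2.85% and 2.73%, as in all non-CD8 T cells, at 0.537%, 0.227%, 2.46% and 4.41%. A cell admitted by 1 Cxcr5 UMI is thus read here as meeting the rule and no more.

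The Pdcd1/Cxcr5+ cells had median depths of 3459, 3001, 2005 and 2092.5 UMIs against 3029.5, 2823, 2094 and 2582.5 in counterparts. Together they held 136343, 28835, 182543 and 126998 UMIs, so that 1 UMI was worth 7.33, 34.7, 5.48 and 7.87 CPM (a gene's UMIs scaled to the summed UMIs of the same cells in the same library, per 1000000). A gene absent from them could still have been present at up to 22, 104, 16.4 and 23.6 CPM, the level of 3 UMIs and the limit of a one-sided 95% interval for a count of 0. The two-sided intervals drawn in the plots reach higher. In the young choroid plexus, with 7 cells, many genes named below gave a single UMI or none. No barcode of a Pdcd1/Cxcr5+ cell was shared with another library, and the doublet caller Scrublet marked 0 of them. Scrublet marked 16, 22, 0 and 5 cells in the whole libraries, so in the aged meninges it marked none and says nothing there. Cd4 RNA was seen in 71 of the 172 cells, at 45.5%, 57.1%, 38.1% and 41.7%, against 34.8%, 38.3%, 31.0% and 35.5% of counterparts. The absence of a Cd4 UMI at this depth does not show that a cell was not a CD4 T cell.

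The regions before the transcription start of Pdcd1, which set the gate, and of Tigit, an inhibitory receptor whose RNA was higher in the gated cells, are shown because NFAT, a factor switched on by T cell receptor signals, is known to act on Pdcd1. Each line gives 250 bases before the start in RefSeq (GRCm38.p6), 5′ to 3′ on the gene's strand, with the NFAT core GGAAA or its reverse complement TTTCC in capitals.
Pdcd1 chr1:94052554-94052803, minus strand: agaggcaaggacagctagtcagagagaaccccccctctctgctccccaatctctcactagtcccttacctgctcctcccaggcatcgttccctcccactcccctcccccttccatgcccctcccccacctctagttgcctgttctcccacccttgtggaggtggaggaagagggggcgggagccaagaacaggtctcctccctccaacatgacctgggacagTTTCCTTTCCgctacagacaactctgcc
Tigit chr16:43664185-43664434, minus strand: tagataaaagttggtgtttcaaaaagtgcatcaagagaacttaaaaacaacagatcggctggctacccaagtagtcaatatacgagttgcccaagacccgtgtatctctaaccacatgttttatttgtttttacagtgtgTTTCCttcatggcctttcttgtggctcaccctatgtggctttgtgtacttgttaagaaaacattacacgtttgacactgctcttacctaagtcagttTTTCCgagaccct
The core was found 2 times in each window shown, and 1 time in that of Izumo1r, which was also searched. It stood in 55.6% of 32851 mouse promoters of this length, so its presence is common. The AP-1 letters TGANTCA, searched on both strands, were found in none of these windows and in 6.75% of all promoters. These matches describe the windows and show no binding, and sites outside the 250 bases were not searched. Starts are those of RefSeq, and for Tigit the start lies slightly upstream of the gene end that GENCODE gives below.

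The label of these cells as follicular helper or exhausted-like was checked against its markers. Besides the gate genes, the markers named for them were Izumo1r, Slamf6 and Sh2d1a. Of these, Izumo1r was higher in the Pdcd1/Cxcr5+ cells than in counterparts, and Slamf6 and Sh2d1a did not pass the test. Izumo1r (9:14885814-14903949, minus strand) stood at 308, 34.7, 427 and 449 CPM against 90.9, 113, 198 and 144 in counterparts. It was high in 3 of the 4 libraries, and in the young choroid plexus a single UMI was seen. The log2 fold change paired by library was 1.14 ± 0.24 (SE, n = 4 libraries, adjusted p = 0.00651 by edgeR). The call held in 12 of 17 other settings, and not by DESeq2, without the young meninges, without the block, without B cell gene cells or with a Cd4 UMI required. An Izumo1r UMI was present in 42.4%, 14.3%, 42.9% and 43.8% of Pdcd1/Cxcr5+ cells and in 18.4%, 20.8%, 24.7% and 24.1% of counterparts. Tnfsf8-positive cells had one in 20.8%, 23.9%, 44.7% and 43.6%, and Foxp3-positive cells in 62.5%, 63.6%, 64.3% and 58.3%.

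Slamf6 (1:171917515-171953170, plus strand), a homophilic adhesion receptor, stood at 58.7, 69.4, 181 and 150 CPM against 109, 133, 113 and 101. Its values were below those of counterparts in the young libraries and above them in the aged ones, and the paired log2 fold change was 0.00 ± 0.26 (adjusted p = 1, edgeR). Sh2d1a (X:42502453-42529330, plus strand), the adaptor of Slam receptors, stood at 110, 69.4, 164 and 283 CPM against 119, 132, 145 and 83.4. The aged choroid plexus alone stood clearly above its counterparts, and the log2 fold change was 0.36 ± 0.27 (adjusted p = 0.856, edgeR). All 3 markers were found together in 9.09%, 14.3%, 4.76% and 6.25% of the cells (3, 1, 4 and 3 cells) and in 1.82%, 1.89%, 1.67% and 2.48% of counterparts. The shares were 3.77%, 6.52%, 6.15% and 11.1% of Tnfsf8-positive cells and 9.38%, 18.2%, 2.38% and 4.17% of Foxp3-positive cells. The combination was thus not particular to the Pdcd1/Cxcr5+ cells. Over all libraries Pdcd1/Cxcr5+ cells were at 6.40% (3.24 to 11.2) and counterparts at 1.90% (1.31 to 2.66). These intervals pool the cells of 4 unlike libraries, and within every single library the exact intervals overlapped. At least 2 of the 3 markers were seen in 22.7% (16.6 to 29.7) and 15.5% (13.8 to 17.3). In Tnfsf8-positive cells the pooled share was 27.8% (23.5 to 32.6) and in Foxp3-positive cells 34.6% (28.3 to 41.3), both above the Pdcd1/Cxcr5+ cells.

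Several genes that define the named states were near 0, and others were not. Bcl6, the follicular helper master regulator, gave 2 UMIs in all 172 cells, and Il21 gave 6. Either was seen in 6.06%, 0%, 2.38% and 4.17% of the cells (2, 0, 2 and 2 cells) and in 0.662%, 1.35%, 0.628% and 1.77% of counterparts. Over all libraries the shares were 3.49% (exact 95% interval 1.29 to 7.44) and 0.980% (0.572 to 1.56), and in Tnfsf8-positive cells 3.29%. Ascl2 and Cxcl13, further follicular helper genes, gave 0 UMIs. Havcr2 gave 3 UMIs, all in 1 cell. Lag3 stood at 0, 0, 93.1 and 78.7 CPM and was thus seen in the aged libraries alone. Tox stood at 44.0, 0, 76.7 and 86.6 CPM, with a log2 fold change against counterparts of 0.57 ± 0.38 (adjusted p = 0.771, edgeR). At least 1 of Tox, Lag3, Havcr2 and Tigit was seen in 78 of 172 cells, at 42.4%, 14.3%, 47.6% and 47.9%, and in 12.1%, 11.6%, 24.3% and 11.3% of counterparts. The shares were 18.9%, 17.4%, 46.4% and 34.2% of Tnfsf8-positive cells and 25%, 18.2%, 60.3% and 60.4% of Foxp3-positive cells. In the aged meninges the Tnfsf8-positive cells were thus close to the Pdcd1/Cxcr5+ cells, and the Foxp3-positive cells stood above them. Tigit itself was seen in 60 of the 78 and is described below. The cells are therefore named by their rule and not as follicular helper or exhausted cells.

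Across all genes, 46 of 5363 fitted genes were higher in Pdcd1/Cxcr5+ cells than in counterparts (0.858%) and 33 were lower (0.615%), 1.47% together, at an adjusted p under 0.05 by edgeR on UMIs summed per library, with the library as a block. The higher genes included Tigit, Ctla4, Tnfrsf4 and Izumo1r, and the lower genes Lef1, Satb1 and Ccr7. Without the library block 0 genes passed in either direction, with 165 higher and 244 lower at an unadjusted p under 0.05, and DESeq2 called 14 higher and 4 lower. The young meninges carried much of the count: without that library 7 higher genes (Penk, Top2a, Tnfrsf9, Nrn1, Rgs16, Tigit and Eea1) and 4 lower genes (Igfbp4, Satb1, Ly6c2 and Ccr7) remained. Without the young choroid plexus 66 were higher and 86 lower. The lower count fell to 20 without the aged meninges. When cells with a UMI of a B cell gene were left out, 3 were higher and 6 lower, and when a Cd4 UMI was required on both sides 0 were higher and 3, namely Igfbp4, Satb1 and Lef1, were lower. The first setting left 17, 6, 68 and 24 Pdcd1/Cxcr5+ cells and 4094 fitted genes. The second left 15, 4, 32 and 20 cells and 2497 genes. What part the smaller numbers had in the fewer calls was not tested. Higher genes made up 58.2% of the calls, 77.8% of those by DESeq2, and 71.0% where composition (TMM) scaling was left out, which moved the median of all genes from -0.02 to 0.13 on the log2 scale.

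Among inhibitory receptors, Tigit and Ctla4 were higher in the Pdcd1/Cxcr5+ cells. Tigit (16:43648867-43664146, minus strand), which competes with CD226 for ligands on antigen-presenting cells, stood at 213, 34.7, 257 and 236 CPM against 11.2, 0, 79.5 and 22.7. It was above counterparts in all 4 libraries, though in the young choroid plexus by a single UMI. The log2 fold change was 2.74 ± 0.33 (adjusted p = 7.11e-06, edgeR), and the call held in 15 of 17 other settings, failing without the library block and where a Cd4 UMI was required. Ctla4 (1:60887000-60915832, plus strand), which takes CD80 and CD86 from antigen-presenting cells, stood at 110, 0, 351 and 78.7 CPM against 25, 11.8, 127 and 26.5. It was above counterparts in the 3 libraries in which it was seen, and the log2 fold change was 1.49 ± 0.26 (adjusted p = 0.000957, edgeR). Without the young meninges its log2 fold change was 1.34 and without the aged meninges 1.58, and neither passed. The call held in 9 of 14 other settings.

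Of the 22 inhibitory and exhaustion-linked genes listed, 13 were fitted, 5 were higher (Tigit, Rgs16, Cd200, Ctla4 and Ikzf2) and 0 lower, with a median log2 fold change of 0.84 against -0.02 over all genes. All 13 fitted values were above 0. The filter before the fit keeps a gene that reaches its level in the sums of either class alone. A gene low in all counterpart sums was thus fitted only if high in the Pdcd1/Cxcr5+ cells. The signs and medians of all lists are read with that limit. Rgs16, a brake on chemokine receptor signalling, stood at 73.3, 0, 121 and 70.9 CPM against 7.97, 0, 29.8 and 6.32, a log2 fold change of 2.50 ± 0.39 (adjusted p = 0.000189, edgeR). Cd200, a ligand that calms myeloid cells, stood at 80.7, 0, 104 and 70.9 CPM against 19.7, 30.0, 26.2 and 15.2. Both genes were high in the 3 larger libraries and absent from the young choroid plexus. The call of Rgs16 held in 11 of 12 other settings and that of Cd200 in 8 of 15. Where the list was fitted without the aged meninges or without the young meninges, 2 genes of it passed each time. Against Tnfsf8-positive and against Foxp3-positive cells 0 genes of the list passed, with medians given below.

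**Figure D2:**
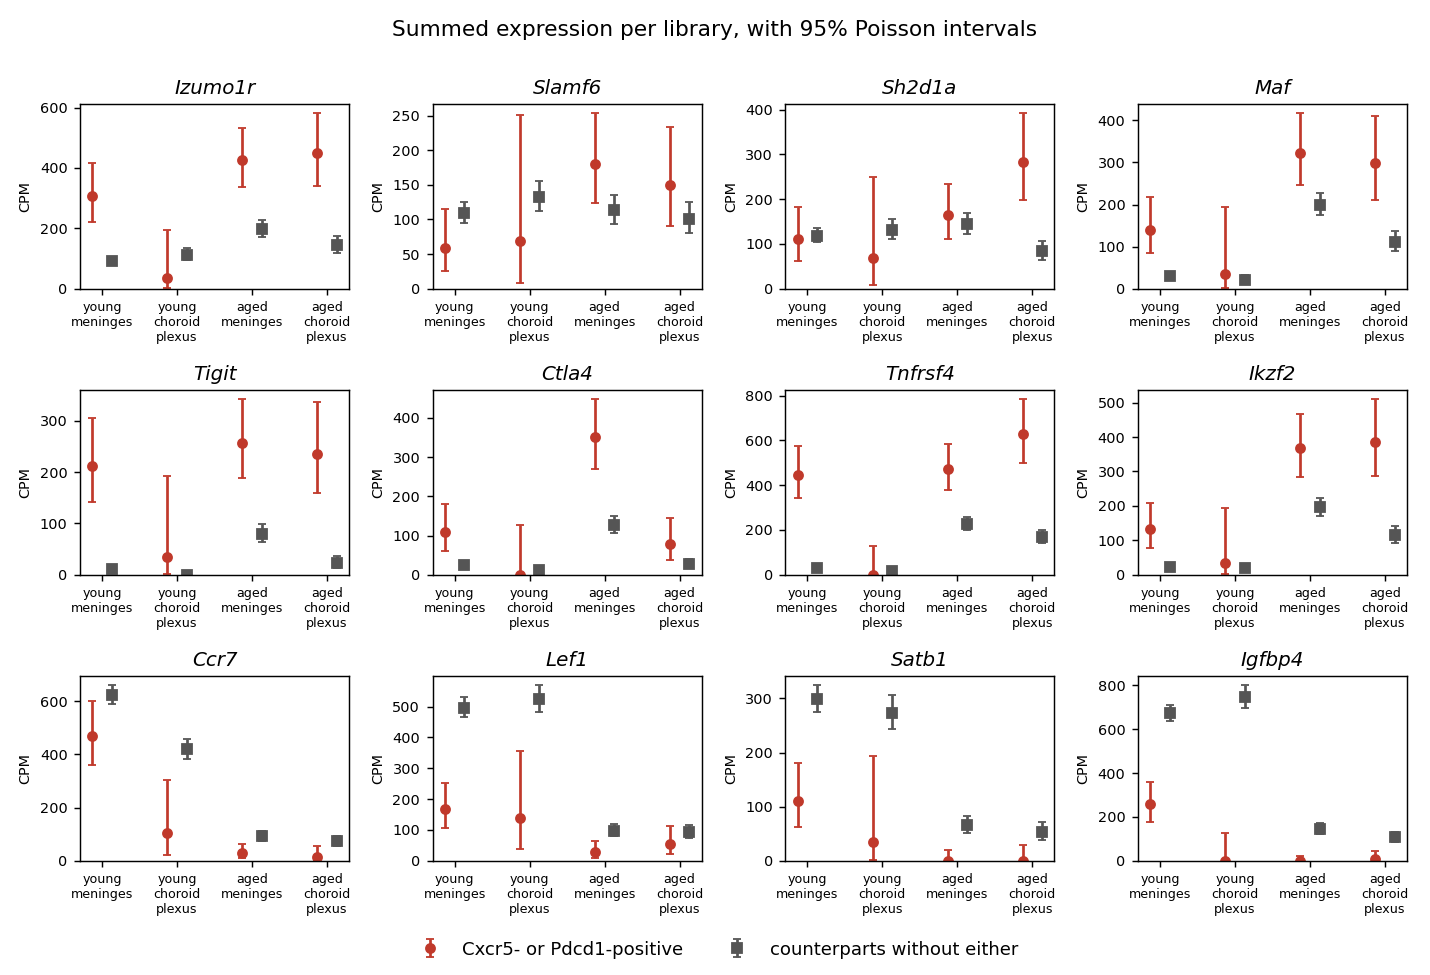
Summed CPM (y axes) of 12 genes in the 4 libraries (x axis) for Pdcd1/Cxcr5+ cells (red circles) and counterparts (grey squares), with exact 95% Poisson intervals. Tigit, Ikzf2 and Maf stand higher and Ccr7, Lef1, Satb1 and Igfbp4 lower in the red points, while Slamf6 crosses, and the young choroid plexus intervals are wide because 1 UMI is worth 34.7 CPM there.

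The receptors Tnfrsf4, Tnfrsf18 and Tnfrsf9, all costimulatory, were higher as well. Tnfrsf4 (OX40; 4:156013843-156016612, plus strand), which sustains activated CD4 T cells, stood at 447, 0, 471 and 630 CPM against 30.8, 18.2, 229 and 167. The gap was wide in the young meninges and smaller in both aged libraries, with a log2 fold change of 1.94 ± 0.30 (adjusted p = 0.000189, edgeR). Tnfrsf18 (GITR) stood at 213, 312, 378 and 543 CPM against 112, 82.8, 241 and 248, above counterparts in all 4 libraries, with a log2 fold change of 0.86 ± 0.20 (adjusted p = 0.0191, edgeR). Tnfrsf9 (4-1BB), a receptor of recently activated cells, stood at 73.3, 0, 110 and 157 CPM against 9.03, 0, 21.7 and 18.9 (log2 fold change 2.63 ± 0.36, adjusted p = 6.17e-05, edgeR). Of these, Tnfrsf9 still passed without the young meninges. Tnfrsf4 was then at 1.28 and did not pass. Over all other settings the call of Tnfrsf4 held in 11 of 17 and that of Tnfrsf18 in 9 of 17. Among 20 genes of antigen receptor signalling, 15 were fitted, these 3 were higher and 0 lower, with a median of 0.14. The immediate early gene Nr4a1 stood at 227, 0, 219 and 23.6 CPM against 131, 7.28, 250 and 15.2 and did not pass (adjusted p = 0.971, edgeR).

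Some of these genes are also typical of regulatory T cells, and the rule left out every cell with a Foxp3 UMI. Of 11 regulatory T cell genes other than Foxp3, 8 were fitted, 5 were higher (Tnfrsf9, Tnfrsf4, Ctla4, Ikzf2 and Tnfrsf18) and 0 lower, with a median log2 fold change of 1.25. Only Tnfrsf9 of these 5 still passed without the young meninges. Ikzf2 (Helios; 1:69531214-69687245, minus strand), a transcription factor that stabilises regulatory cells, stood at 132, 34.7, 367 and 386 CPM against 23.4, 19.1, 196 and 115. It was above counterparts in all 4 libraries, in the young choroid plexus by a single UMI, with a log2 fold change of 1.39 ± 0.24 (adjusted p = 0.000695, edgeR). The call held in 11 of 16 other settings. It was lost without the block, after thinning (1.03), without the young meninges (1.15), without B cell gene cells (0.88) and with a Cd4 UMI required (0.69). Il2ra (CD25) stood at 44.0, 0, 27.4 and 63.0 CPM against 15.9, 12.7, 47.9 and 41.7 and did not pass (adjusted p = 0.979, edgeR). An Ikzf2 or Il2ra UMI was found in 27.3%, 14.3%, 38.1% and 45.8% of the cells. The shares were 6.46%, 6.47%, 29.7% and 23.8% of counterparts, 11.3%, 4.35%, 31.3% and 40.2% of Tnfsf8-positive cells and 65.6%, 63.6%, 87.3% and 91.7% of Foxp3-positive cells. In the aged meninges the Pdcd1/Cxcr5+ cells were close to counterparts, with overlapping exact intervals (27.7 to 49.3 against 25.6 to 34.0). Without all cells carrying either gene, 13 genes were higher and 15 lower against counterparts. Tigit (log2 fold change 3.15) and Izumo1r (1.29) were among the 13, and Tnfrsf4 (0.96) and Maf (1.12) were not. Whether cells with undetected Foxp3 took part in these differences was not tested.

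Of 25 genes of the wider follicular helper program, 16 were fitted, 4 were higher (Izumo1r, Maf, Cd200 and Tnfrsf4) and 0 lower. The median log2 fold change was 0.03, and 9 of the 16 values were above 0. None of the 4 passed without the young meninges. Maf (8:115682942-115707794, minus strand), a transcription factor shared by follicular helper, regulatory and IL-10-making T cells, stood at 139, 34.7, 323 and 299 CPM against 30.8, 20.9, 200 and 111. It was above counterparts in every library, with a log2 fold change of 1.13 ± 0.24 (adjusted p = 0.00651, edgeR), and 0.89 without the young meninges, where it did not pass. The call held in 10 of 17 other settings, and the value was 0.70 after thinning. Icos, the costimulator that follicular helper cells need, stood at 213, 104, 214 and 236 CPM against 90.9, 59.1, 202 and 104 (log2 fold change 0.64 ± 0.23, adjusted p = 0.216, edgeR). Cd40lg, the helper ligand for B cells, stood at 235, 104, 219 and 189 CPM against 213, 156, 309 and 189 (log2 fold change -0.33, adjusted p = 0.768, edgeR). Izumo1r and Maf were seen together in 27.3%, 0%, 20.2% and 22.9% of the cells. The shares were 1.82%, 0.809%, 9.83% and 7.09% of counterparts and 5.66%, 2.17%, 23.5% and 22.2% of Tnfsf8-positive cells. Among Foxp3-positive cells both genes were seen in 15.6%, 18.2%, 37.3% and 25%. A difference between libraries in the gap to counterparts was not tested. The interval of the young meningeal cells (13.3 to 45.5) held both aged shares.

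Of 16 listed genes of naive and stem-like T cells, all 16 were fitted, 9 were lower (Igfbp4, Satb1, Txk, Actn1, Dapl1, Lef1, Nsg2, Ccr7 and Klf2) and 0 higher, with a median log2 fold change of -1.15. Without the young meninges only Igfbp4, Satb1 and Ccr7 of these 9 still passed. Lef1 (3:131110471-131224356, plus strand), a transcription factor that keeps T cells undifferentiated, stood at 169, 139, 27.4 and 55.1 CPM against 497, 525, 97.6 and 93.5. It was below counterparts in every library (log2 fold change -1.72 ± 0.26, adjusted p = 0.000189, edgeR). Satb1 (17:51736187-51833290, minus strand), a chromatin organiser of resting T cells, stood at 110, 34.7, 0 and 0 CPM against 299, 274, 65.1 and 53.1. It was absent from both aged libraries, and the call (log2 fold change -2.39 ± 0.38, adjusted p = 0.000189, edgeR) held in 16 of 17 other settings. Tcf7, the partner of Lef1 that stem-like PD-1-positive cells retain, stood at 315, 347, 110 and 181 CPM against 452, 401, 183 and 195 and did not pass (log2 fold change -0.61, adjusted p = 0.187, edgeR).

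Ccr7 and Klf2 of the same list act in T cell traffic. Ccr7 (11:99144196-99155077, minus strand), which guides T cells into lymph nodes, stood at 469, 104, 27.4 and 15.7 CPM against 624, 419, 91.3 and 73.3, a log2 fold change of -1.25 ± 0.27 (adjusted p = 0.00967, edgeR). The young meninges stood closest to its counterparts. Klf2, which drives tissue egress, stood at 785, 69.4, 312 and 213 CPM against 1228, 934, 440 and 310, a log2 fold change of -1.04 ± 0.25 (adjusted p = 0.0239, edgeR). It was lower in all 4 libraries. Igfbp4 (11:99041244-99054392, plus strand), a growth factor binding protein made by naive T cells, stood at 257, 0, 0 and 7.87 CPM against 673, 748, 146 and 107, and 1 young meningeal cell held 55.6% of its UMIs (log2 fold change -2.68 ± 0.37, adjusted p = 6.17e-05, edgeR). A Ccr7 or Lef1 UMI was present in 42.4%, 57.1%, 10.7% and 16.7% of Pdcd1/Cxcr5+ cells and in 77.8%, 81.1%, 20.5% and 25.9% of counterparts, so both kinds of cell held fewer such cells in the aged libraries. The counterparts are thus a mixture whose share of Ccr7 or Lef1 cells differed between the young and aged libraries. Each difference above was taken within a library.

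**Figure D3:**
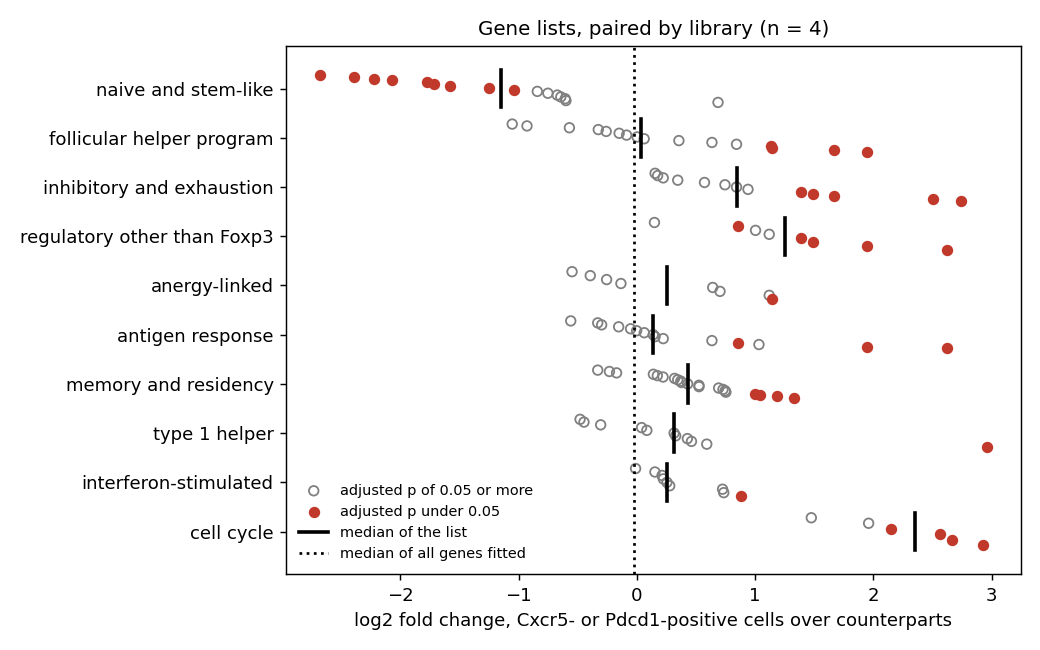
Log2 fold change of Pdcd1/Cxcr5+ cells over counterparts, paired by library (x axis), for the fitted genes of 10 lists (rows); filled points passed at an adjusted p under 0.05, black bars are list medians and the dotted line is the median of all genes. The naive and stem-like list lies to the left with a median of -1.15, the regulatory list to the right with 1.25, and the follicular helper list around 0.03. Genes low in all counterpart sums entered the fit only where high in Pdcd1/Cxcr5+ cells.

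Genes with the largest differences that pointed the same way in all 4 libraries reached beyond these lists. Nrn1, encoding neuritin, a secreted protein linked to regulatory and anergic T cells, stood at 73.3, 34.7, 60.3 and 39.4 CPM against 2.13, 1.82, 9.94 and 10.1 (log2 fold change 3.03 ± 0.47, adjusted p = 0.000189, edgeR). Marcksl1, an actin-binding kinase substrate, stood at 139, 34.7, 38.3 and 23.6 CPM against 8.5, 5.46, 13.6 and 2.53 (2.81 ± 0.45, adjusted p = 0.000238, edgeR), with 43.3% of its UMIs from 1 cell. Pou2f2, the octamer-binding factor Oct-2, stood at 103, 173, 137 and 63.0 CPM against 20.2, 14.6, 53.3 and 39.2 (1.54 ± 0.33, adjusted p = 0.00842, edgeR). All 3 were above counterparts in every library. Nrn1 and Marcksl1 were low in every counterpart sum and entered the fit through the Pdcd1/Cxcr5+ sums alone. Rgs1, a regulator that holds T cells in tissue by damping chemokine receptors, stood at 660, 173, 849 and 181 CPM against 111, 28.2, 425 and 141. Its excess was widest in the young libraries (1.33 ± 0.26, adjusted p = 0.00277, edgeR), and the call held in 12 of 17 other settings, with 0.58 without B cell gene cells and 0.80 without the young meninges. Cyfip1 (1.72), Mmd (1.58) and Cdkn2c (1.82), a cyclin-dependent kinase inhibitor, also passed in this group. Nrn1 kept its call in 10 of 11 other settings, Pou2f2 in 11 of 16, Mmd in 7 of 14, Cyfip1 in 7 of 13 and Cdkn2c in 8 of 12.

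On the lower side, Txk, a Tec-family kinase of the T cell receptor pathway, stood at 44.0, 69.4, 16.4 and 7.87 CPM against 202, 152, 73.2 and 40.4 (log2 fold change -2.22 ± 0.35, adjusted p = 0.000189, edgeR). It was lower in all 4 libraries. Ly6c1, a surface antigen of central memory and some naive cells, stood at 58.7, 34.7, 5.48 and 39.4 CPM against 226, 207, 72.3 and 54.3 (-2.09 ± 0.35, adjusted p = 0.000523, edgeR). Trat1, a T cell receptor-associated adaptor, stood at 36.7, 34.7, 38.3 and 15.7 CPM against 79.2, 94.6, 102 and 102 (-1.73 ± 0.34, adjusted p = 0.00318, edgeR). Actn1 (-2.07), Galnt6 (-1.88), Dapl1 (-1.77) and Sesn1 (-1.60), a stress-induced inhibitor of growth signalling, passed as well. These calls were less stable than that of Satb1: Trat1 kept its call in 9 of 17 other settings, Txk in 13 of 16 and Galnt6 in 8 of 16.

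Some large values rested on few cells, and the limit of the filter given above applies to them and to the cell cycle list. Penk, encoding the opioid precursor proenkephalin, stood at 103, 0, 121 and 378 CPM against 0.531, 0, 35.3 and 1.26 (log2 fold change 3.96 ± 0.56, adjusted p = 7.57e-05, edgeR) and came from 13 cells. Top2a, a topoisomerase of dividing cells, stood at 44.0, 832, 16.4 and 126 CPM and came from 9 cells, 2 of them among the 7 of the young choroid plexus. Of 8 cell cycle genes 6 were fitted, 4 were higher and 0 lower, with a median of 2.35, while a Mki67, Top2a or Birc5 UMI was found in 9.09%, 28.6%, 3.57% and 6.25% of the cells (3, 2, 3 and 3 cells) and in 3.15%, 3.50%, 3.97% and 5.32% of counterparts. The chemokine gene Ccl4 also passed, with 98% of its UMIs from 1 cell. Cd74, the invariant chain, passed with 69.7% of its UMIs from 1 cell of the young meninges.

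Of 25 listed memory and tissue-residency genes, 21 were fitted, 4 were higher (Rgs1, Anxa2, Bhlhe40 and S100a11) and 0 lower, with a median of 0.43. These 4 did not pass without the young meninges. S100a11, a calcium-binding protein of effector and memory cells, stood at 638, 763, 992 and 874 CPM against 169, 175, 609 and 657, above counterparts in every library (log2 fold change 1.0 ± 0.21, adjusted p = 0.00727, edgeR). Of 13 anergy-linked genes 8 were fitted and Izumo1r was the 1 higher (median 0.25), and of 9 genes linked to age-associated Pdcd1-high CD4 T cells 5 were fitted and Cd81 was the 1 higher (median 0.86). Of 12 interferon-stimulated genes 9 were fitted and Isg15 was the 1 higher (median 0.25). Helper lineage genes gave little: of 13 type 1 genes 11 were fitted and Ccl4 was the 1 higher (median 0.32), of 10 type 2 genes 4 were fitted and Ccr8 was the 1 higher (0.55), and of 9 type 17 genes 2 were fitted and 0 passed (-0.80). Of 14 cytotoxic and natural killer genes 5 were fitted and 0 passed (-0.31), and of 6 natural killer T-linked genes 2 were fitted and Ly6c2 was lower (-0.53).

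Markers of other cells were looked at in the same sums. The B cell genes Ms4a1, Cd79a or Cd79b were seen in 2, 0, 1 and 1 Pdcd1/Cxcr5+ cells, and 1 young meningeal cell admitted by Cxcr5 held 16 Cd79a UMIs. The immunoglobulin gene Ighm was far more widespread: with it, 48.5%, 14.3%, 19.0% and 50% of cells had a UMI of any of the 4, against 44.7%, 45.3%, 28.2% and 31.9% of counterparts. The summed B cell list stood at 1298, 34.7, 301 and 457 CPM against 238, 261, 240 and 195, led by Cd74 in the young meninges and by Ighm elsewhere. Of its 14 genes 2 were fitted and Cd74 was the 1 higher (median 1.36). The part of B cell RNA in the differences above was not tested, and the counts without cells carrying it are those given with the total.

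Macrophage and monocyte genes summed to 7.33, 0, 0 and 7.87 CPM, dendritic cell genes to 29.3, 0, 0 and 7.87, and no gamma-delta receptor gene was seen, and none of these genes was fitted. Of 6 plasma cell genes 1 was fitted (Xbp1, which many T cells also express) and of 9 stromal genes 1 (Pecam1), and 0 passed. Haemoglobin genes summed to 44.0, 0, 3758 and 0 CPM, with 97.3% of the Hbb-bs UMIs of the aged meninges in 1 cell. Of 4 haemoglobin genes 1 was fitted, with a log2 fold change of 2.71 that did not pass.

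The cells admitted by either gene were set side by side. No library held 10 cells admitted by Cxcr5 alone, so the 154 and 14 cells were pooled over libraries and are described without a test. A Cd4 UMI was seen in 42.9% of the cells admitted by Pdcd1 and in 14.3% of those admitted by Cxcr5. Maf was seen in 44.2% and 14.3%, Icos in 35.7% and 7.14%, Ikzf2 in 35.1% and 7.14%, and Ctla4 in 27.9% and 0%. Izumo1r was seen in 40.9% and 42.9%. Sh2d1a stood at 26.6% and 50%, and Ighm at 30.5% and 50%. With 14 cells, a single cell is worth 7.14 percentage points, and no difference between these cells is claimed.

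Receptor variety was read from the beta-chain V genes, of which 30, 6, 72 and 40 cells had a UMI. Trbv13-2 was the most used in 3 libraries, in 7 of 30, 12 of 72 and 6 of 40 cells, and Trbv20 in the young choroid plexus, in 2 of 6. The inverse Simpson index, the effective number of V genes, was 8.49, 4.50, 11.1 and 11.3 against 13.6, 15.3, 14.2 and 11.5 in counterparts. The index grows with the number of cells, so no order between groups is read from it, and no single V gene held most cells of any library.

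Next the Pdcd1/Cxcr5+ cells were set beside 2 classes that the rule leaves out, with Tnfsf8 or Foxp3 UMIs. Here and above, the Tnfsf8-positive cells had no UMI of Foxp3, Gzmk or Eomes. The Foxp3-positive cells were all non-CD8 T cells with a Foxp3 UMI, whatever their Tnfsf8, Gzmk or Eomes UMIs. Cells with Pdcd1 or Cxcr5 UMIs were kept in both classes, so the classes were not gated alike. These comparisons use the same cells as the one with counterparts and are given side by side. Against Tnfsf8-positive cells, the CD153 class, 0 of 2282 fitted genes passed in either direction (0% called, edgeR), with 64 higher and 56 lower at an unadjusted p under 0.05, and DESeq2 called 0 as well, with 24 higher and 30 lower unadjusted. Tigit stood at 82.0, 6.72, 178 and 181 CPM in the Tnfsf8-positive cells, Maf at 53.1, 73.9, 325 and 301, and Izumo1r at 174, 108, 366 and 315. In the aged libraries the Poisson intervals of these 3 genes overlapped between both classes. The gap was wider for Ikzf2, at 48.2, 6.72, 211 and 192 CPM against 132, 34.7, 367 and 386 (log2 fold change 0.97 ± 0.21, adjusted p = 0.239, edgeR). The median of the naive and stem-like list was -0.79 over 10 fitted genes, against 0.01 over all genes. For the inhibitory and exhaustion-linked list it was 0.004 over 10 fitted genes, of which 5 had values above 0.

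Against Foxp3-positive cells, a comparison added after the data were seen, 1 of 1876 fitted genes was higher in Pdcd1/Cxcr5+ cells (0.0533%) and 0 were lower, with 56 higher and 75 lower at an unadjusted p under 0.05. DESeq2 also called 1 higher and 0 lower. The gene was Nkg7, a granule protein of cytotoxic and type 1 cells, at 271, 1214, 383 and 142 CPM against 32.5, 229, 161 and 56.9 (log2 fold change 1.75 ± 0.27, adjusted p = 0.0316, edgeR). It was above the Foxp3-positive cells in every library, and did not pass without the library block, without the young meninges or without the aged choroid plexus. Ikzf2 was the other way round, at 357, 250, 763 and 730 CPM in the Foxp3-positive cells, and fell short of the threshold (log2 fold change -1.16 ± 0.20, adjusted p = 0.0569, edgeR). Of 7 regulatory genes fitted, all had values below 0, with a median of -0.41. Among 8 inhibitory and exhaustion-linked genes fitted, 2 had values above 0, with a median of -0.38.

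**Figure D4:**
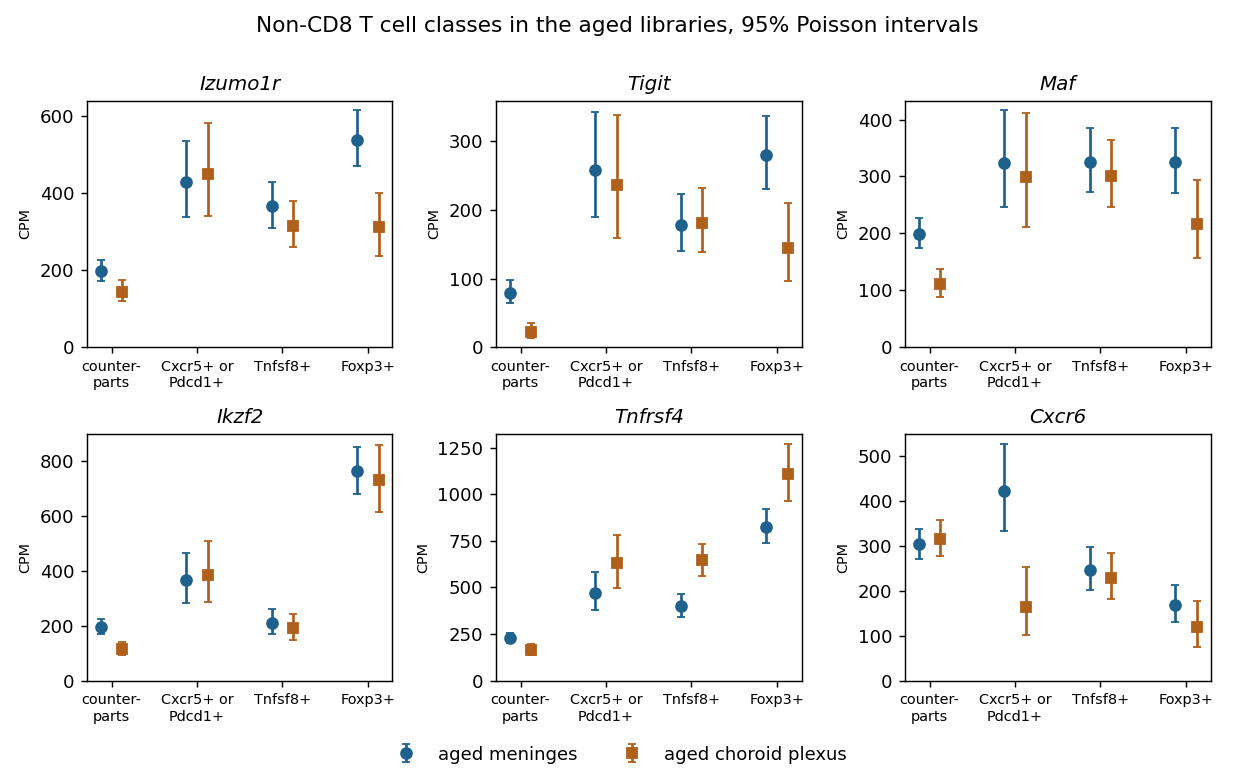
Summed CPM (y axes) of 6 genes in 4 classes of non-CD8 T cells (x axis) of the aged meninges (blue circles) and aged choroid plexus (brown squares), with exact 95% Poisson intervals. For Izumo1r, Tigit and Maf the Pdcd1/Cxcr5+ cells lie near the Tnfsf8+ cells and above counterparts, and for Ikzf2 between the Tnfsf8+ cells (211 and 192 CPM) and the Foxp3+ cells (763 and 730 CPM).

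Age was compared within each tissue by a rule of size: at least 20 UMIs in the library with more and a log2 ratio of (CPM + 10) of at least 1. In the meninges 85 of 1375 genes were higher in the aged Pdcd1/Cxcr5+ cells (6.18%) and 46 lower (3.35%), 9.53% together. In the choroid plexus 122 of 858 were higher (14.2%) and 44 lower (5.13%), 19.3% together, against only 7 young cells. There the minimum works unevenly, because the aged cells held 126998 UMIs and the young ones 28835, so a gene of moderate level reaches 20 UMIs through the aged library alone and enters if it is high there. The excess of higher genes in the choroid plexus is read with that limit, and the gene lists are given for the meninges only. When Poisson intervals also had to stay apart, 49 and 25 remained for meningeal cells, and 21 and 24 for the choroid plexus. The choroid plexus count depended on the scaling: with median-of-ratios size factors 242 were higher and 14 lower, that is 94.5% of calls against 73.5%, and the median of all genes went from 0.14 to 0.69. In the meninges the same change gave 111 and 35, or 76.0% against 64.9%. Of 831 genes with enough UMIs in both tissues, 13 were higher and 3 lower in both, and 6 went opposite ways.

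Ikzf2, described above, had a log2 ratio of 1.41 for the meninges, and Maf of 1.16. Both genes also passed the rule in the choroid plexus, but each gave a single UMI in the young cells there, below the level of 3 UMIs, so no size is given. Counterparts also stood higher in the aged libraries for both genes. S100a6, a calcium-binding protein of effector and memory cells, stood at 499, 728, 1874 and 1882 CPM, log2 ratios of 1.89 and 1.36, and in counterparts at 226, 364, 1520 and 1795. The aged values were nearly equal between tissues. Ifngr1, the ligand-binding chain of the interferon gamma receptor, stood at 257, 243, 674 and 646 CPM (1.36 and 1.38). Socs1, a feedback inhibitor of cytokine signals, stood at 58.7, 139, 192 and 323 CPM (1.55 and 1.16). In the young choroid plexus Ifngr1 and Socs1 gave few UMIs. Both genes met the minimum of UMIs for that tissue through the aged library alone, so their choroid plexus ratios are not read as sizes.

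Counterparts had Ifngr1 at 266, 160, 545 and 522 CPM, and the aged values were the higher ones there too. The difference between both kinds of cell in their age ratio was not tested. The interferon-stimulated list had 3 of 8 genes higher and 0 lower with age in the meninges (median log2 ratio 0.92 against 0.05 over all genes). Prr13 (log2 ratio 1.12 in the meninges), Ggnbp2 (1.19), Plekhj1 (1.19) and the unnamed model AC149090.1 (1.39) completed the genes named by rank. Their values in the young choroid plexus rested on 3, 1, 2 and 1 UMIs. After thinning, the choroid plexus ratio of Plekhj1 turned to -0.59.

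**Figure D5:**
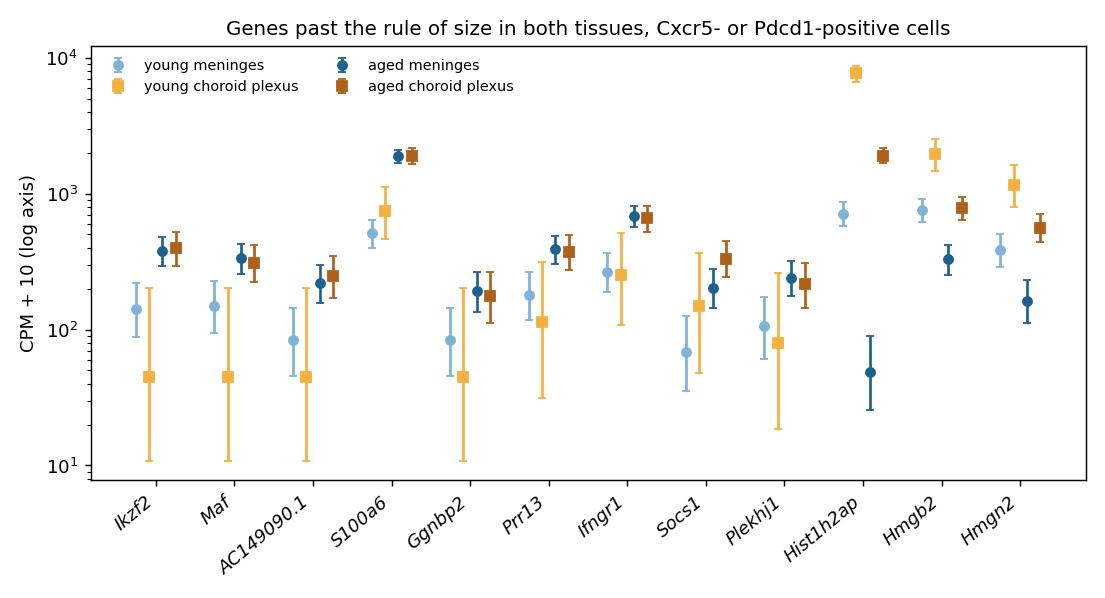
CPM + 10 on a log axis (y axis) for 9 of the genes ranked highest and the 3 lower in aged Pdcd1/Cxcr5+ cells of both tissues (x axis), for the 4 libraries, with exact 95% Poisson intervals. In the young choroid plexus some genes rest on a single UMI. Darker points (aged) lie above the lighter ones (young) of the same tissue for the first 9 genes and below for Hist1h2ap, Hmgb2 and Hmgn2, and intervals of the young choroid plexus, with 7 cells, are the widest.

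Of 9 naive and stem-like genes with enough UMIs in the meninges, 5 were lower and 0 higher, with a median log2 ratio of -1.30. Ccr7 had a ratio of -3.68, and Igfbp4 gave 35 UMIs in the young and 0 in the aged meninges. Among regulatory genes 2 of 7 were higher in meningeal cells (median 0.78) and among inhibitory genes 3 of 7 (0.65), with 0 lower in either list. Over all genes 6.18% were higher. Counterparts moved the same way between young and aged meninges. Their summed regulatory list went from 293 to 1260 CPM (1386 to 2257 in Pdcd1/Cxcr5+ cells) and the inhibitory list from 438 to 1206 (1372 to 2158). The naive and stem-like list went from 6181 to 2353 (3286 to 1912). Ube2c, a ubiquitin-conjugating enzyme of mitosis (31 and 0 UMIs), and the chemokine gene Ccl1 (-3.21, 89.3% of its UMIs from 1 cell) were also lower in the aged meninges.

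The 3 genes lower in both tissues, Hist1h2ap (-3.87 and -2.01), Hmgb2 (-1.20 and -1.32) and Hmgn2 (-1.23 and -1.04), encode chromatin proteins that dividing cells make in quantity. Without cells carrying B cell genes the ratio of Hmgn2 in the meninges turned to 1.26. Hist1h2ap stood at 697, 7630, 38.3 and 1890 CPM, and 1 cell held 40.4% of its UMIs. In the choroid plexus Pclaf (-4.42), Birc5 (-3.55), Stmn1 (-3.50) and Top2a (-2.63), all of the cell cycle, were lower along with Nkg7 (-3.01), and 2 of the 7 young cells carried the cell cycle genes. The cell cycle values of the young choroid plexus therefore describe a pair of cells.

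The 2 aged libraries, with 84 and 48 cells, were also compared by the rule of size, a comparison added after the data were seen. Of 1319 genes, 13 were higher in the aged choroid plexus (0.986%) and 97 lower (7.35%). Among the lower genes Dusp1, a phosphatase that ends MAP kinase signals, gave 169 UMIs in meningeal cells and 11 in choroid plexus cells (log2 ratio -3.28), Gadd45b 97 and 9 (-2.74), and Nr4a1 40 and 3 (-2.77). Junb, an AP-1 subunit, stood at 2061, 104, 2608 and 370 CPM over the 4 libraries. Its counterparts stood at 1773, 131, 2641 and 280, so the gap between tissues was found in both kinds of cell and at both ages. Areg, the tissue-repair ligand amphiregulin, gave 82 and 6 UMIs (-3.00). Ccl4 (297 and 0 UMIs, 3 cells) and Il17a (94 and 0 UMIs, 2 cells) rested on few cells. Penk was higher in the choroid plexus, with 22 and 48 UMIs (1.57), as were Hist1h2ap (5.30) and Stmn1 (3.30). These genes were chosen for mention after their values were seen.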

How the data were processed

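The authors deposited a filtered 10x matrix of UMI counts per gene and cell for each of 4 libraries, made per the labels with Cell Ranger 5.1.0 and STAR on mm10, while the matrix headers name Cell Ranger 3.1.0. The counts hold 31053 genes. Their quality limits (200 to 7000 genes, at most 5% mitochondrial UMIs) were applied here, and no doublets were removed. Members and gene lists were chosen with earlier results of these data known. UMIs were summed per library and class, since cells are not replicates. edgeR 4.0.16 (R 4.3.3, limma 3.58.1) fitted the quasi-likelihood test with TMM scaling, filterByExpr and the library as a block, which pairs both classes of cells of 1 library, and Benjamini-Hochberg adjustment covered all genes fitted except the 11 rule genes. Each SE was derived from the fold change and its F value. The steps were run on simulated sums in which no gene rested on a single cell. That run therefore does not cover genes whose UMIs came mostly from 1 cell. DESeq2 1.42.0 was an alternative. Samples within a pair are from the same mice, so p-values measure the spread between 4 pooled libraries. Whether both tissues of an age came from the same mice is not stated, so the 4 libraries may not be independent. The study's Wilcoxon test over cells was not used. The comparison of the cells admitted by Pdcd1 and by Cxcr5 was planned as a test for libraries with 10 cells of each and had none. Scrublet in scanpy 1.11.5 scored doublets. Intervals are exact (scipy 1.17.1) at 95% and cover counting error only. Named were, besides listed and rule genes, the 10 largest and 10 smallest fold changes past an adjusted p of 0.05 with 1 sign in every library, and the genes passing the age rule in both tissues, with receptor, immunoglobulin, mitochondrial, ribosomal and haemoglobin genes left out. Genes with a 0 in the young choroid plexus came from the lists or were chosen after their values were seen. Coordinates are from GENCODE M21 (30934 of 31053 identifiers matched). Some items are not reported here.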

Additional observations from a re-analysis of the deposited data

How the results depend on the processing

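With 1 library per group, and 7 cells in the young choroid plexus, depth and the number of libraries limited every value, and which calls survive depended on the cells admitted. As percent of cells meeting every other condition, the gate at 2 or more UMIs gave 1.88 (young meninges), 4.80 (aged meninges) and 5.15 (aged choroid plexus). Thinning gave 3.16, 9.91 and 9.26 in the same libraries. A gate on Cxcr5 UMIs only, with or without Pdcd1, gave 0.314, 0.265, 1.60 and 1.82 over the 4 libraries. With Foxp3, Tnfsf8, Gzmk and Eomes cells kept, the aged libraries were at 20.8 and 22.1. The difference between aged and young in percentage points was 2.92 (meninges) and 4.36 (choroid plexus) at 2 or more UMIs. It was 1.29 and 1.55 for the gate on Cxcr5 UMIs only, and 14.2 and 19.6 with Foxp3, Tnfsf8, Gzmk and Eomes cells kept. In the choroid plexus it was 8.24 without cells carrying B cell genes and 8.35 after thinning. All kept their sign.

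Against counterparts the numbers of higher and lower genes were 14 and 4 by DESeq2, 82 and 61 with at least 20 UMIs, 10 and 7 after thinning, 3 and 6 without B cell gene cells, 0 and 3 with a Cd4 UMI required, and 13 and 15 without Il2ra or Ikzf2 cells. Without TMM scaling 76 were higher and 31 lower, and with at least 1 UMI 69 and 84, where lower genes outnumbered higher ones. Without the replicate block (the library) 0 and 0 passed. Leaving out 1 library at a time gave 7 to 66 higher and 4 to 86 lower genes. Against Tnfsf8-positive cells thinning gave 2 and 2, and leaving out a library 0 to 6 and 0 to 4. Against Foxp3-positive cells 0 passed without the replicate block, and leaving out a library gave 0 to 4 in either direction.

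For age, the numbers of higher and lower genes in the meninges were 48 and 20 with a pseudocount of 50 CPM, 285 and 170 at 10 UMIs, 1273 and 964 with no minimum, 56 and 4 after thinning, and 49 and 25 where intervals stayed apart. In the choroid plexus they were 242 and 14 with median-of-ratios factors, 395 and 129 at 10 UMIs, 2679 and 1633 with no minimum, 43 and 11 after thinning, 42 and 17 without B cell gene cells, and 21 and 24 where intervals stayed apart. Without B cell gene cells 101 were higher and 19 lower in the meninges, and with a Cd4 UMI required 35 were higher and 41 lower (meninges) and 46 and 31 (choroid plexus). Reversed were Plekhj1 in the choroid plexus after thinning (-0.59) and Hmgn2 in the meninges without B cell gene cells (1.26), and the cause was not tested. The alternatives for the cells admitted by Pdcd1 against those admitted by Cxcr5 were not run, since no library held 10 of the latter.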
